A study of Sus scrofa with 60 samples.

Results

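The sulfotransferase transcripts SULT2A1, SULT1E1 and SULT1A3 were followed through liver development in the pig. They were the whole of the probe-sets of the Affymetrix GeneChip Porcine Genome Array whose only gene symbol in the platform annotation starts with SULT and a digit. The rule found 3 probe-sets of 24123 on the array, 1 each for SULT2A1, SULT1E1 and SULT1A3. For the assembly Sscrofa11.1, RefSeq lists 6 pig genes of this name, and SULT4A1, SULT2B1 and SULT6B1 were not matched by a probe-set with a single symbol. RefSeq gives SULT1A1 as a synonym of SULT1A3, so this probe-set is taken as the phenol-type SULT1A gene of the pig, and cross-hybridisation with a near-identical copy was not tested.

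Cytosolic sulfotransferases move a sulfate group from the donor PAPS (3'-phosphoadenosine-5'-phosphosulfate) to hydroxyl groups of hormones, bile acids and drugs, which makes these more soluble in water. SULT2A1 is the hydroxysteroid sulfotransferase that acts on dehydroepiandrosterone and bile acids. SULT1E1 sulfates estrogens, and the SULT1A enzymes sulfate phenols, among them many drugs. In human liver these enzymes are abundant, and sulfation is regarded as a conjugation route that is active early in life.

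All 60 arrays came from liver of offspring of German Landrace gilts that had received an adequate protein (AP) diet during gestation, so diet did not differ between the groups. The groups were fetuses at 94 days post conception (94 dpc, n = 15), newborn piglets at 1 day post natum (1 dpn, n = 15), piglets at weaning (28 dpn, n = 14) and young adults (188 dpn, n = 16). By the study's methods, fetuses were taken by Caesarean section in an experiment of their own, whereas the postnatal animals were born after induced farrowing. The animals of 28 and 188 dpn were raised by foster sows, males were castrated, and both groups were fasted overnight before sampling. The fetuses and newborns were the lightest and heaviest of a litter, and each stage held pairs of siblings. Littermates were distributed over the 3 postnatal stages, so a postnatal comparison may hold siblings on both sides. Litter, sex and weight are not in the sample labels, so siblings entered the tests as separate animals. The tests set stage differences against the spread between animals and take no account of litter. The SEs and p-values may therefore be too small. Values are given as log2(intensity + 16), and a level of 1 probe-set cannot be set against the level of another.

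The liver markers albumin (ALB) and transthyretin (TTR) were high on every array, with ALB between 15.25 and 16.63 and TTR between 14.75 and 16.29. Array medians averaged 169.8 ± 5.62, 149.1 ± 9.75, 116.8 ± 6.16 and 111.2 ± 5.75 intensity units at 94 dpc, 1 dpn, 28 dpn and 188 dpn (SD). The actin control's 3' signal over its 5' signal (log2), a sign of RNA or cRNA length, averaged 2.29, 1.76, 3.54 and 4.01 in the same order. Mean log2 levels of 9 erythroid genes were 10.47, 7.81, 7.78 and 7.73, which sets the blood-forming fetal liver apart from the later stages. Stage and these array properties cannot be told apart.

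SULT2A1 was lower in the fetus than at all stages after birth, although it was above its array median in 15 of 15 fetuses. Its level was 7.94, 8.99 and 10.40 in the lowest, median and highest fetus at 94 dpc, with a mean of 9.23 ± 0.72 (SD, n = 15). At 1 dpn the lowest, median and highest newborns had 13.13, 13.99 and 14.96, with a mean of 14.02 ± 0.59 (SD, n = 15). At 28 dpn the values lay between 14.05 and 14.64 around a median of 14.34, with a mean of 14.36 ± 0.18 (SD, n = 14), and at 188 dpn between 14.15 and 15.00 around a median of 14.60, with a mean of 14.58 ± 0.30 (SD, n = 16). In intensity units the fetal values ran from 229.8 to 1338, and the lowest newborn had 8974.

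SULT1E1 was near the background of the array in the fetus, peaked in the newborn and was lowest after birth at weaning. At 94 dpc the lowest, median and highest fetuses had 4.15, 6.04 and 7.75, with a mean of 6.04 ± 0.80 (SD, n = 15). Only 4 of 15 fetuses were above all 17 Affymetrix Tag control probe-sets, which have no pig target, and 1 of 15 was above its array median. All later animals were above both. At 1 dpn the level was 9.87, 10.78 and 11.51 in the lowest, median and highest newborn (mean 10.82 ± 0.55, SD, n = 15). It was 8.72, 9.56 and 10.37 at 28 dpn (mean 9.57 ± 0.47, SD, n = 14) and 9.45, 10.23 and 11.09 at 188 dpn (mean 10.27 ± 0.46, SD, n = 16).

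SULT1A3 was intermediate in the newborn and at weaning and highest in the young adult. The fetuses had 9.43, 9.94 and 10.41 (lowest, median and highest), with a mean of 9.88 ± 0.30 (SD, n = 15). The newborns had 10.11, 11.45 and 13.43 (mean 11.61 ± 0.98, SD, n = 15), and the piglets at 28 dpn had 10.51, 12.27 and 13.35 (mean 12.05 ± 0.90, SD, n = 14). At 188 dpn all 16 animals lay between 13.28 and 14.57 around a median of 14.10, with a mean of 13.96 ± 0.40 (SD, n = 16).

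**Figure D1:**
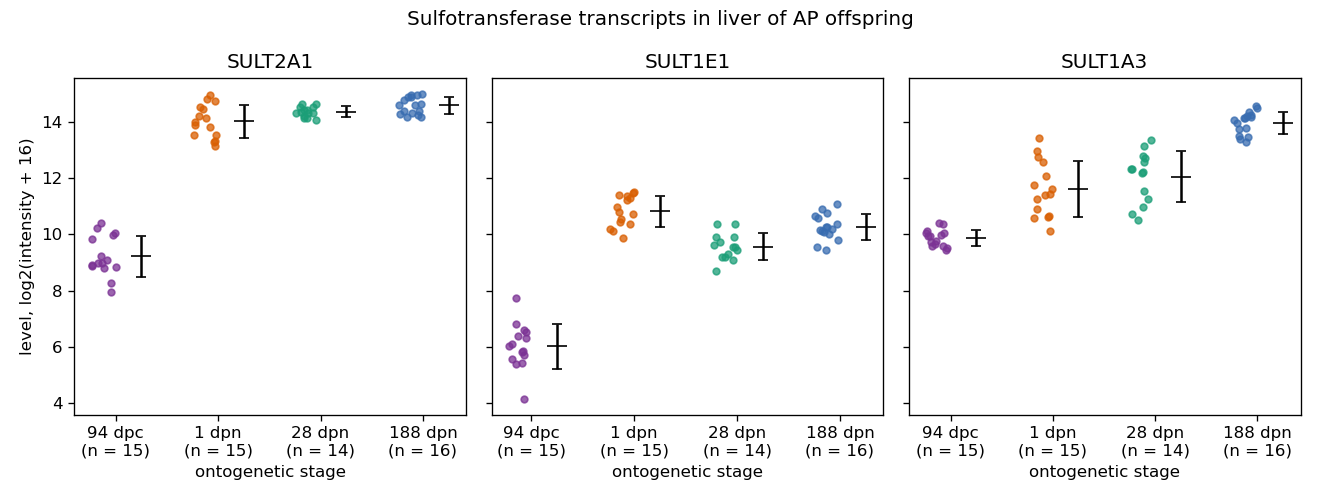
Level of each sulfotransferase probe-set in each animal (points) at the 4 ontogenetic stages, as log2(intensity + 16), with the stage mean and SD beside the points in black. The fetal points of SULT2A1 and SULT1E1 lie below every later animal, whereas SULT1A3 spreads from 10.11 to 13.43 at 1 dpn and lies between 13.28 and 14.57 at 188 dpn.

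Each member differed among the 4 stages (limma F test, adjusted p = 1.3e-37 for SULT2A1, 2.1e-30 for SULT1E1 and 1.1e-21 for SULT1A3), as did 93.2% of the 13844 probe-sets tested. The comparisons between pairs of stages therefore carry the detail. Changes are the later minus the earlier stage on the log2 scale, tested with limma over all probe-sets that passed a filter on low values, with Benjamini-Hochberg adjustment and a threshold of 0.05. All 3 members passed the filter in all 6 pairs of stages, but SULT1E1 passed in the pairs with 94 dpc only through the later group, where it was high.

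Around birth (period I, 1 dpn against 94 dpc) all 3 members rose. SULT2A1 was 4.79 higher in newborns than in fetuses (SE 0.23, 95% interval 4.33 to 5.26, adjusted p = 6.1e-18), and SULT1E1 was 4.79 higher (SE 0.24, 95% interval 4.30 to 5.27, adjusted p = 1.7e-17). SULT1A3 was 1.73 higher (SE 0.25, 95% interval 1.23 to 2.24, adjusted p = 3.9e-07). Of all 12771 probe-sets tested, 23.9% were higher in newborns and 41.1% were lower. SULT2A1 had the 10th largest rise and SULT1A3 the 185th, whereas SULT1E1 is given no rank because its fetal level was near background.

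For SULT2A1 and SULT1E1 every newborn lay above every fetus, which held for 4.46% of all probe-sets in this direction. For SULT1A3, 14 of 15 newborns lay above the highest fetus. The rise of SULT1E1 depends on how values near background are treated, since it was 5.30 with 1 and 3.99 with 64 added to the intensities. In bulk tissue, fewer cells of a type and less RNA per cell cannot be told apart. All 9 erythroid genes on the array were lower in newborns, with a median change of -2.41, and their summed intensity ran from 1552 to 5356 in newborns and from 10650 to 46430 in fetuses. RHCE, KLF1, HBE1 and TFRC passed the filter only through the fetuses, where they were high, so this count and its median are not read. AHSP, the chaperone of alpha-globin, averaged 8.66 ± 0.80 in newborns and 13.03 ± 0.53 in fetuses (SD, n = 15 each), ALAS2, the erythroid heme synthesis enzyme, 10.43 ± 0.71 and 12.85 ± 0.45, and beta-globin (HBB) 7.85 ± 0.48 and 8.78 ± 0.30, with newborns given before fetuses. Of 16 hepatocyte marker genes, 5 were higher and 2 lower in newborns (median change 0.00). Their part in the rise of the members was not tested.

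From the newborn to the weaned piglet (period II, 28 dpn against 1 dpn) SULT1E1 fell, and the others did not pass the test. SULT1E1 fell by 1.26 on the log2 scale (SE 0.18, 95% interval -1.63 to -0.88, adjusted p = 4.6e-07), a 2.39-fold lower level at 28 dpn, and 10 of 14 piglets at 28 dpn lay below the lowest newborn. In all, 39% of 12976 probe-sets were lower at 28 dpn and 28.5% were higher. SULT2A1 differed by 0.34 (95% interval 0.01 to 0.66, adjusted p = 0.064) and SULT1A3 by 0.44 (95% interval -0.23 to 1.11, adjusted p = 0.24). The difference in SULT2A1 passed the threshold in 5 of 29 fits that left out 1 animal, namely newborn 2, 4, 6, 7 or 11, with the adjusted p between 0.020 and 0.12 over the 29 fits. It passed when each array was centred on its median (0.65, adjusted p = 0.00087) and turned to -0.37 with the actin ratio as a covariate (adjusted p = 0.53). SULT1A3 in this period was 0.75 with centring (adjusted p = 0.046) and -0.081 with the actin ratio (adjusted p = 0.96). Hepatocyte markers moved too, with 0 of 16 higher and 12 lower at 28 dpn (median change -0.39), and their part was not tested.

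From weaning to young adulthood (period III, 188 dpn against 28 dpn) SULT1A3 and SULT1E1 rose. SULT1A3 was 1.92 higher at 188 dpn (SE 0.23, 95% interval 1.44 to 2.39, adjusted p = 1.2e-07), a 3.77-fold rise that was the 18th largest of 12568 probe-sets. Of 16 young adults, 15 lay above the highest piglet at 28 dpn. SULT1E1 was 0.70 higher (SE 0.16, 95% interval 0.37 to 1.03, adjusted p = 0.00085), a 1.63-fold rise, with 5 of 16 young adults above the highest piglet at 28 dpn. Only 15.5% of the probe-sets were higher at 188 dpn in this period, and 24.1% were lower. SULT2A1 differed by 0.22 (95% interval 0.02 to 0.41, adjusted p = 0.068), which passed the threshold in 4 of 30 fits that left out 1 animal, namely animal 13 at 28 dpn or animal 1, 6 or 9 at 188 dpn (adjusted p between 0.038 and 0.11 over the 30 fits). It was 0.28 with centring (adjusted p = 0.027) but turned to -0.0067 with quantile normalization (adjusted p = 0.97) and to -0.080 with hepatocyte markers subtracted (adjusted p = 0.52). Of the hepatocyte markers 13 of 16 were higher and 0 lower at 188 dpn (median change 0.30). With the mean of these markers subtracted from each array, SULT1E1 was 0.40 higher and no longer passed the threshold (adjusted p = 0.052).

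Across longer intervals, both older stages lay above the fetus without overlap for all members. At 28 dpn SULT2A1 was 5.13, SULT1E1 3.53 and SULT1A3 2.17 above 94 dpc (all higher, as were 28.8% of 13237 probe-sets). At 188 dpn the same members were 5.35, 4.23 and 4.09 above 94 dpc (all higher, as were 27.9% of 13361). For SULT1E1 these sizes rest on a fetal level near background and ran from 2.78 to 4.03 at 28 dpn and from 3.45 to 4.78 at 188 dpn over the alternative settings. Such a separation upwards was found for 9.36% of all probe-sets at 28 dpn and for 10.3% at 188 dpn. Against the newborn, the young adult had higher SULT1A3 (2.35, adjusted p = 4.7e-10), higher SULT2A1 (0.55, adjusted p = 0.0028) and lower SULT1E1 (-0.55, adjusted p = 0.0051). The last of these missed the threshold when arrays were centred on their median (-0.18, adjusted p = 0.34), SULT2A1 missed it with quantile normalization (0.24, adjusted p = 0.20), and with the actin ratio as a covariate none of the 3 passed and SULT2A1 turned to -0.65 (adjusted p = 0.34). Of all probe-sets, 28.8% were higher and 43.2% lower at 188 dpn than at 1 dpn. The orders of the levels therefore differed. SULT2A1 and SULT1A3 had their lowest mean at 94 dpc and their highest at 188 dpn. For both, 28 dpn against 1 dpn missed the threshold after adjustment, as did 188 dpn against 28 dpn for SULT2A1, and these calls changed with the settings named above. SULT1E1 was highest at 1 dpn, followed by 188 dpn, 28 dpn and 94 dpc. Every neighbouring pair in this order passed the main test, but not all under the alternatives. The step between 1 and 188 dpn missed the threshold with centring and with the actin ratio. That between 188 and 28 dpn missed it with hepatocyte markers subtracted (limma, adjusted p = 0.052). Against 94 dpc it passed the filter only through 28 dpn, and without the filter the adjusted p was 5.3e-14 (limma).

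**Figure D2:**
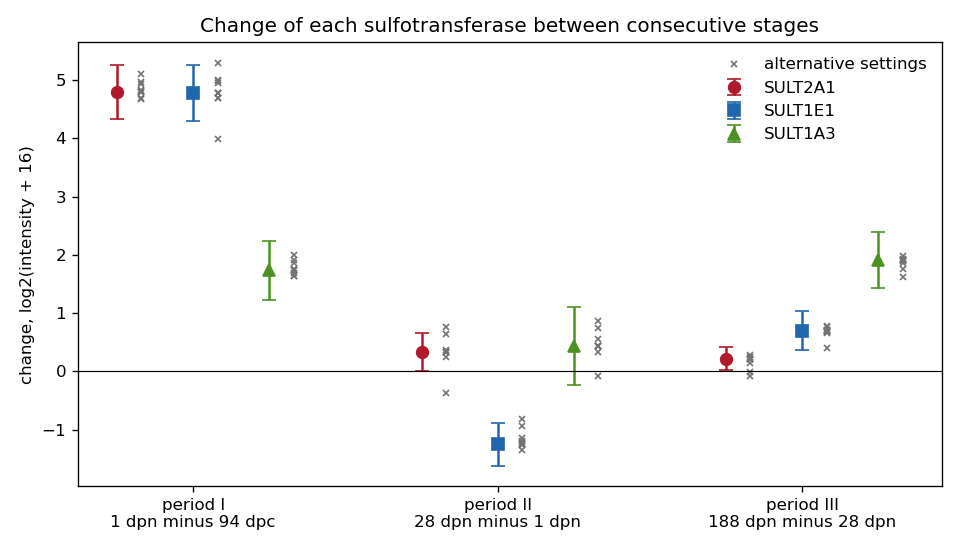
Change of each sulfotransferase probe-set between consecutive stages (later minus earlier, log2 scale), with the 95% interval of the limma fit. Grey crosses give the same change under the 10 alternative settings; SULT1E1 is the only member below 0 in period II under all of them, and SULT1A3 has the largest change in period III.

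Whether members changed by different amounts was tested on the difference between a pair of members in each animal, with a two-sided permutation test of 100000 resamples. In period I the rises of SULT2A1 and SULT1E1 differed by 0.01 (SE 0.34, p = 0.98, adjusted p = 0.98 over 3 periods). This SE leaves room for a sizeable difference, and with 64 added to the intensities the difference was 0.69 (adjusted p = 0.034). In period II SULT2A1 gained 1.59 over SULT1E1 (SE 0.24, permutation p = 1e-05, the smallest value these resamples can give, adjusted p = 3e-05). In period III SULT2A1 changed by -0.48 relative to SULT1E1 (SE 0.22, permutation p = 0.041, adjusted p = 0.062).

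SULT1A3 was compared with the other members in the same way after its values had been seen. It rose less than SULT2A1 in period I (-3.06, SE 0.27) and more in period III (1.70, SE 0.25), both with permutation p = 1e-05 (adjusted p = 2e-05 over 6 tests). Against SULT1E1 the differences were -3.05 (SE 0.35, permutation p = 1e-05, adjusted p = 2e-05) in period I, 1.69 (SE 0.40, permutation p = 0.00035, adjusted p = 0.00053) in period II and 1.22 (SE 0.33, permutation p = 0.00082, adjusted p = 0.00098) in period III. The period I value rests on a fetal SULT1E1 level near background, so its size is not fixed. The rise of SULT1E1 was 5.30 with 1 and 3.99 with 64 added to the intensities, and that of SULT1A3 1.75 and 1.69. Between SULT1A3 and SULT2A1 in period II the difference was 0.10 (SE 0.32, permutation p = 0.76, adjusted p = 0.76).

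The spread between animals also changed with stage. SULT1A3 was tight in fetuses, whose highest value was 1.97-fold the lowest, and wide in newborns (9.99-fold) and at 28 dpn (7.13-fold), before it narrowed to 2.44-fold at 188 dpn. Its SD was larger than that of 97.8% of 13844 probe-sets at 1 dpn and of 98.3% at 28 dpn, against 53.4% at 94 dpc. The mean absolute deviation from the stage median was 0.78 in newborns and 0.24 in fetuses (two-sided permutation p = 0.0017, adjusted p = 0.0077 over 9 tests). It was 0.33 at 188 dpn and 0.70 at 28 dpn (permutation p = 0.026, adjusted p = 0.059).

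For SULT2A1, the SD of 0.72 in fetuses exceeded that of 94.3% of all probe-sets, and the SD of 0.18 at 28 dpn exceeded that of 11.5%. The mean absolute deviation was 0.15 at 28 dpn and 0.49 at 1 dpn (permutation p = 0.00056, adjusted p = 0.0050). It was 0.26 at 188 dpn and 0.15 at 28 dpn (permutation p = 0.021, adjusted p = 0.059), and in period I the change was -0.06 (permutation p = 0.71, adjusted p = 0.81). Among the fetuses 5 had between 9.84 and 10.40, and the other 10 had between 7.94 and 9.24, with a gap of 0.60 between them. For SULT1E1 no change of spread passed the test (adjusted p between 0.50 and 0.95), and 1 fetus stood at 4.15, 1.27 below the next. These tests of spread were added after the values had been seen.

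Within a stage, animals with more SULT2A1 did not show a detectable tendency to have more SULT1E1. Pearson's r was 0.00 at 94 dpc (rho -0.03), 0.18 at 1 dpn (rho 0.08), -0.42 at 28 dpn (rho -0.45) and -0.46 at 188 dpn (rho -0.49). The permutation p was 0.99, 0.51, 0.14 and 0.072 for r and 0.92, 0.77, 0.11 and 0.055 for rho, in the same order, and none passed after adjustment over the 4 stages (smallest adjusted p = 0.28 for r and 0.22 for rho). Without the 2 animals farthest from the median of SULT2A1, r was 0.04, 0.26, -0.31 and -0.50. SULT1A3 and SULT2A1 had r between 0.37 and 0.60 in the 4 stages (rho 0.27 to 0.58), with the largest at 94 dpc (permutation p = 0.017, adjusted p = 0.14 over 8 tests). SULT1A3 and SULT1E1 had r between -0.27 and 0.15 (rho -0.39 to 0.11, smallest adjusted permutation p for r = 0.51).

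The genes whose pattern was most like each member were found by Pearson's r with 5488 other measured genes, as a description with no test. Over all 60 arrays, HSD11B1, which reactivates glucocorticoids, had the highest r with SULT2A1 (0.96), followed by LRG1 (0.95), C2H19orf70 (0.95), SEC14L2 (0.95) and LOC102163508 (0.95). For SULT1E1 these were LOC396684 (0.93), the serum amyloid P component APCS (0.92), the cytochrome CYP2C33 (0.92), the tyrosine catabolic enzyme HPD (0.91) and the aminoacylase ACY1 (0.90). LOC396684, APCS and HPD followed the order of SULT1E1, HPD with stage means of 6.14, 13.84, 10.19 and 11.15 from 94 dpc to 188 dpn. The fetal mean of HPD lay below the mean of the highest Tag control at 94 dpc (6.56). For SULT1A3 the list, made after its values had been seen, held the folate enzyme ALDH1L1 (0.93), SELENBP1 (0.93), GABARAPL1 (0.92), the microsomal glutathione transferase MGST1 (0.92) and SGF29 (0.92). These values rest largely on the stages themselves. With stage means subtracted, the highest r was 0.50 with SULT2A1 (IL7, then CPS1, FBP1, ALKBH3 and VWA5A) and 0.55 with SULT1E1 (ACTR6, then CWC27, LOC100152407, ACADL and DCAF10).

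The values were higher for SULT1A3. With stage means subtracted, its r was 0.78 with SGF29, a subunit of the SAGA chromatin complex, 0.73 with ALDH1L1, 0.64 with LOC780435, 0.61 with DCAF11 and 0.59 with the tyrosine catabolic enzyme FAH. SGF29 is also the gene next to SULT1A3 in the Sscrofa11.1 annotation, and SLX1A, the nearest gene on the other side, had an r of 0.43. BOLA2B overlaps SULT1A3 in that annotation, so whether the probe-set reads 1 transcript was not tested. Of the 2 nearest protein-coding genes on each side of SULT2A1 and SULT1E1, those on the array were SELENOW (r = 0.03 with SULT2A1), ELSPBP1 (-0.17 with SULT2A1) and the casein gene CSN1S1 (-0.10 with SULT1E1).

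SGF29 levels averaged 9.48 ± 0.17, 10.30 ± 0.75, 10.18 ± 0.52 and 11.54 ± 0.52 from 94 dpc to 188 dpn (SD). Its r with SULT1A3 within these stages was 0.58, 0.86, 0.77 and 0.74 (rho 0.68, 0.72, 0.76 and 0.77), and 0.63, 0.75, 0.73 and 0.62 without the 2 animals farthest from the median of SULT1A3. For ALDH1L1 the same values of r were 0.35, 0.86, 0.70 and 0.56 (rho 0.47, 0.92, 0.62 and 0.56), and 0.26, 0.83, 0.62 and 0.75 without those animals. Since both genes were picked as the highest of many, no p is given. The 4 newborns with the highest SULT1A3 had the 4 highest levels of SGF29, and the newborn with the most SULT1A3 also had the most SGF29 (12.06) and ALDH1L1 (13.42). That animal, newborn 6, had the array least correlated with the others of its stage (mean r = 0.911).

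**Figure D3:**
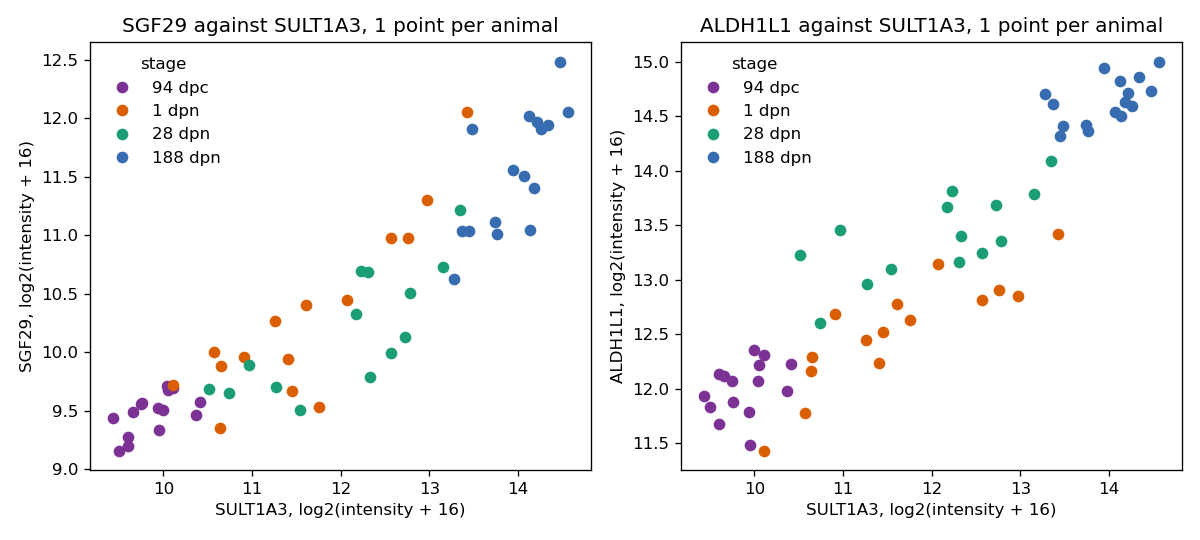
SGF29 (left) and ALDH1L1 (right) against SULT1A3 in each animal, all as log2(intensity + 16), with colours for the 4 stages. Within each stage the points slope upwards, with r between 0.58 and 0.86 for SGF29 and between 0.35 and 0.86 for ALDH1L1.

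Array quality and cell markers were set beside the members within stages. Of 36 correlations between 3 members and the actin ratio, the hepatocyte mean and the erythroid mean in 4 stages, 2 had a permutation p under the threshold before adjustment and 0 after it. These were the actin ratio with SULT1A3 at 188 dpn (r = 0.65, rho = 0.67, permutation p = 0.0075, adjusted p = 0.27, r = 0.51 without the 2 farthest animals) and with SULT2A1 at 1 dpn (r = 0.59, rho = 0.54, permutation p = 0.022, adjusted p = 0.40, r = 0.60 without them).

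Sulfation needs a supply of sulfate and PAPS, and 8 of 14 listed genes of this supply were on the array. In period I, 4 were higher and 1 lower in newborns (median change 0.46, against -0.15 over all probe-sets tested). Of all probe-sets, 23.9% were higher and 41.1% lower. Cysteine dioxygenase (CDO1), the first step from cysteine towards sulfate, averaged 13.11 ± 0.52 in newborns and 11.39 ± 0.49 in fetuses (change 1.72, adjusted p = 4.8e-10, limma). Sulfite oxidase (SUOX) averaged 10.64 ± 0.72 in newborns and 9.33 ± 0.14 in fetuses (1.31, adjusted p = 1.9e-07). The phosphatases that clear the by-product PAP rose as well, BPNT1 by 0.70 and IMPAD1 by 0.95. PAPSS1, 1 of the 2 PAPS synthases, fell by 0.33 (adjusted p = 0.0013), although its other probe-set was not called lower in any period. PAPSS2, the other synthase, and the Golgi PAPS carriers SLC35B2 and SLC35B3 did not pass (0.23, -0.08 and -0.16).

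In period II, 2 of these 8 genes rose (CDO1 by 1.08, SUOX by 0.48) and 4 fell, namely SLC35B3 by 1.08, PAPSS1 by 0.56, IMPAD1 by 0.53 and BPNT1 by 0.30, which turned to 0.02 when arrays were centred on their median. PAPSS2 and SLC35B2 did not pass (0.11 and 0.14). In period III the synthases parted. PAPSS2 averaged 10.74 ± 0.49 at 188 dpn and 9.56 ± 0.44 at 28 dpn (change 1.18, adjusted p = 1.1e-06, limma), and PAPSS1 averaged 8.45 ± 0.22 at 188 dpn and 8.98 ± 0.34 at 28 dpn (-0.53, adjusted p = 0.00014). IMPAD1 fell by 0.68, CDO1 by 0.46 and BPNT1 by 0.26. SUOX, SLC35B2 and SLC35B3 did not pass (0.20, 0.07 and -0.40). The median change of the list was -0.09 in period II and -0.33 in period III, against -0.10 and -0.04 over all probe-sets. Of these, 28.5% were higher and 39% lower in period II, and 15.5% and 24.1% in period III.

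**Figure D4:**
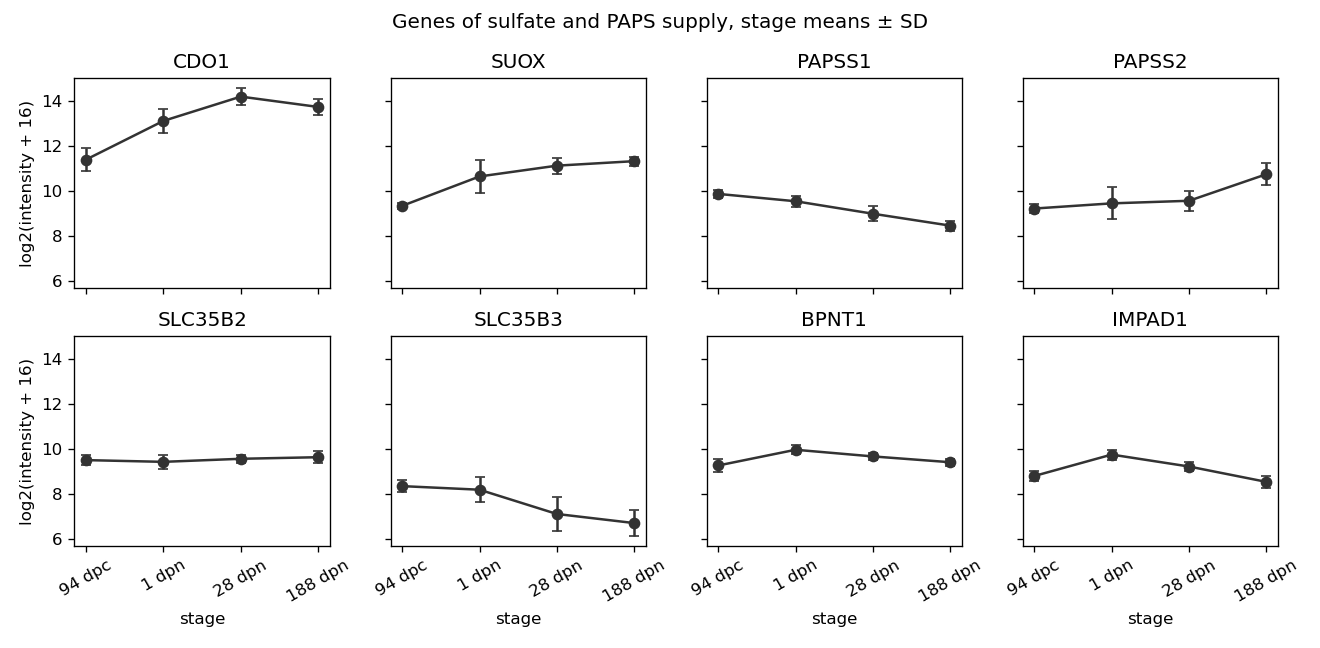
Stage means (points) and SD (bars) of the 8 measured genes of sulfate and PAPS supply, as log2(intensity + 16), from 94 dpc to 188 dpn. CDO1 reaches 14.19 at 28 dpn, PAPSS1 declines to 8.45 and PAPSS2 reaches 10.74 at 188 dpn.

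Other enzymes of conjugation gave more rises than falls in every period. Of 10 genes tested, 7 were higher and 0 lower in period I, 7 higher and 0 lower in period II, and 7 higher and 1 lower in period III, where quantile normalization left 3 higher and 2 lower. Their median changes were 0.38, 0.59 and 0.40, against -0.15, -0.10 and -0.04 over all probe-sets. Of all probe-sets, 23.9%, 28.5% and 15.5% were higher and 41.1%, 39% and 24.1% lower in periods I, II and III. The glucuronosyltransferase UGT2B31 rose by 1.78 and the glutathione transferases GSTA1 and GSTK1 by 2.68 and 1.03 in period I. In period II MGST3, GSTA1 and GSTK1 rose by 1.35, 1.11 and 1.05. In period III the N-methyltransferase INMT rose by 0.87, GSTZ1 by 0.61 and MGST1 by 0.54, whereas GSTA4 fell by 1.42, which its other probe-set did not show as a call.

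Few enzymes that remove sulfate or sulfate glycans could be tested, and their counts are to be read beside the shares of all probe-sets. These were 23.9% higher and 41.1% lower in period I, 28.5% and 39% in period II, and 15.5% and 24.1% in period III. Of the sulfatases, which cleave sulfate esters, 1 of 5 tested rose and 2 fell in period I (IDS by 0.37, ARSA by -0.57 and the activating enzyme SUMF1 by -0.47). In period II, 3 of 6 rose, with ARSA 1.81 and IDS 1.76 higher at 28 dpn and SULF2 0.34 higher, and SGSH fell by 0.56, although no other probe-set of SULF2 or SGSH was called in the same direction. SULF2 passed the filter in this period only through 28 dpn and SGSH only through 1 dpn, where each was higher, so neither call is read. None of 5 passed in period III, where medians over the list and over all probe-sets were -0.09 and -0.04 (limma, 0 of 5 also before adjustment). Steroid sulfatase was not analysed here. Of the Golgi sulfotransferases, which sulfate glycans, 0 of 3 rose and 2 fell in period I (CHST14 by 0.68, HS3ST3A1 by 0.23). In period II, 3 of 6 rose (HS3ST3A1 by 0.91, CHST14 by 0.86, UST by 0.82) and HS2ST1 fell by 0.53, and in period III UST and CHST14 fell by 0.69 and 0.36. UST passed the filter in period II only through 28 dpn, where it was high, so its rise is not read.

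Among 11 tested genes of steroid and thyroid hormone turnover, 5 rose and 4 fell in period I. Over all probe-sets 23.9% were higher and 41.1% lower, with 28.5% and 39% in period II and 15.5% and 24.1% in period III. HSD11B1, the deiodinase DIO1 and the cytochrome P450 reductase POR rose by 2.41, 2.05 and 1.40, and the hydroxysteroid dehydrogenases HSD17B2, HSD17B7 and HSD17B4 fell by 1.67, 0.81 and 0.44. In period II 6 rose and 2 fell, with HSD3B1 (not called in its other probe-set), HSD17B8 and HSD17B2 higher by 2.06, 1.35 and 1.25 and DIO1 and HSD17B7 lower (-1.15 and -0.54). In period III 5 rose and 1 fell, with HSD3B1, HSD17B2 and HSD17B10 higher by 1.26, 0.76 and 0.44 and DIO1 lower (-0.74). HSD17B2, which oxidises estradiol to estrone, thus had its lowest mean at 1 dpn (12.64 ± 0.37), the stage at which SULT1E1 had its highest.

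Carriers that can move sulfate conjugates across membranes gave 3 higher and 1 lower of 6 tested in period I, 4 and 3 of 8 in period II, and 1 and 2 of 8 in period III. Over all probe-sets 23.9%, 28.5% and 15.5% were higher and 41.1%, 39% and 24.1% lower in these periods. The falls of period II and both counts of period III lay near these shares. The bile acid uptake carrier SLC10A1 rose by 0.91, 0.63 and 0.40 in periods I, II and III. The export pumps ABCB1 and ABCC2 rose by 1.62 and 0.81 in period I and fell by 1.08 and 1.06 in period II. The bile salt export pump ABCB11 fell by 1.68 in period II, although its other probe-set was not called lower. SLCO2B1 fell by 0.48 in period I and rose by 1.05 in period II. In that period SLC22A3 and ABCC6 rose by 1.13 and 1.12, the last without a call for its other probe-sets. Both passed the filter there only through 28 dpn, where they were high. Their rises are therefore not read, nor is the count of 4 higher that holds them. SLC22A3 and ABCB1 fell by 1.41 and 0.48 in period III.

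Nuclear receptors and hepatic transcription factors, some of which are known to act on SULT genes in human or rodent liver, gave 7 higher and 3 lower of 20 tested in period I. Over all probe-sets the shares were 23.9% and 41.1%. The list's counts of 6 and 9 of 20 in period II and 3 and 4 of 18 in period III lay near the shares over all probe-sets (28.5% and 39% in period II, 15.5% and 24.1% in period III). The fatty acid receptor PPARA, RORA and the xenobiotic receptor NR1I2 rose by 2.46, 1.22 and 1.04, and NR2F2, RXRA and THRA fell by 0.84, 0.74 and 0.32. In period II 6 of 20 rose (NR2F1 by 0.88, NR1H3 by 0.85, HNF4A by 0.79) and 9 fell, among them PPARA (-1.97), RORA (-1.61) and RARB (-1.57). PPARA averaged 5.62 at 28 dpn and 5.14 at 94 dpc, below the mean of the highest Tag control at those stages (6.34 and 6.56), and RARB averaged 6.43 at 28 dpn, so the sizes of their changes are not fixed. Both passed the filter in periods I and II only through 1 dpn, where they were high. Their rises in period I and falls in period II are therefore not read, nor is the count of 7 higher in period I, which holds both. In period III 3 of 18 rose (CEBPB by 0.90, PPARGC1A by 0.60, NR3C1 by 0.47) and 4 fell, with FOXA1, CEBPA and NR5A2 lower by 0.42, 0.36 and 0.30. In the periods for which they are named, the other probe-sets of PPARA, NR1I2, RXRA, THRA, HNF4A, RARB, NR3C1, CEBPA and NR5A2 were not called in the same direction. NR5A2 also fell in period II (-0.65), where all 4 of its other probe-sets were called lower.

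Markers of other liver cells were summarised by list, to be read beside the shares of all probe-sets that were higher and lower (23.9% and 41.1% in period I, 28.5% and 39% in period II, 15.5% and 24.1% in period III). Of 8 macrophage genes, 5 were higher and 1 lower in period I, 5 higher and 1 lower in period II, and 0 higher and 6 lower in period III. All 7 neutrophil genes were lower in period I and all 5 tested were lower in period II. In period III, 0 of 2 were called. PRTN3 and S100A12 passed the filter in period I only through the fetuses, and LTF, S100A8 and ELANE in period II only through 1 dpn. They were high in those groups, so the counts of periods I and II are not read. Endothelial genes gave 1 higher and 3 lower of 6, 3 and 2 of 6, and 1 and 4 of 5 in the 3 periods. Stellate and fibroblast genes gave 0 and 3 of 8, 3 and 1 of 8, and 1 and 0 of 7. Cholangiocyte genes gave 0 and 0 of 3, 0 and 1 of 3, and 0 and 3 of 3, and lymphocyte genes 0 and 1 of 3 in period III. In period II only 3 of 8 lymphocyte genes (CD3D, CD8A and LCK) passed the filter, through 28 dpn where they were high (8.13, 8.21 and 7.63 at 28 dpn, 6.66, 5.59 and 6.29 at 1 dpn), so their count is not read, and none was tested in period I. For erythroid genes these counts were 2 and 1 of 5 in period II and 0 and 0 of 5 in period III. Counts of 0 in these marker lists were 0 before adjustment as well (limma), except for 1 stellate and fibroblast gene that was lower in period III. The part of any of these cells in the members' changes was not tested.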

How the data were processed

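RNA of each liver was labelled and hybridised singly to an Affymetrix GeneChip Porcine Genome Array. The authors deposited 1 linear intensity per probe-set and array. The submitters' processing notes name GCOS 1.1.1, and the trimmed mean (2% off each end) was 500.1 to 500.2 on every array, so arrays were already scaled. The study's methods describe GCRMA and a mixed model with sex, mother and weight; these terms are not in the labels and could not be fitted. No pair of arrays was identical.

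The members and gene lists were chosen with earlier results of these data known. Intensities were taken as log2(intensity + 16), without 124 control probe-sets. For each pair of stages a probe-set was kept if it exceeded the array median in at least 50% of the animals of a stage, and limma 3.58.1 (R 4.3.3) was fitted to that pair with Benjamini-Hochberg adjustment over all probe-sets kept. The threshold was an adjusted p of 0.05. A gene with several probe-sets was represented by its brightest. Permutation tests used 100000 resamples (Python 3.11.15, scipy 1.17.1). The scripts were tested on simulated data. Of 23999 probe-sets that are no controls, 10069 had 1 gene symbol, 198 several and 13732 none. Named were all SULT probe-sets, all measured genes of sulfate and PAPS supply, up to 3 called genes per list, period and direction, and the 5 genes most like each member. Alternatives were other added constants, no filter, quantile normalization, median centring, 1 joint fit, leaving out arrays, the actin ratio as a covariate, subtraction of hepatocyte markers and an intensity trend. The number of arrays limits the precision. Protein and promoter sequences were not used here.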

Additional observations from a re-analysis of the deposited data

How the results depend on the processing

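No paired analysis was possible because the labels number the arrays through all stages and share no replicate number between stages, and they give no litter. The rises of all members in period I, the fall of SULT1E1 in period II, the rise of SULT1A3 in period III and every change against 94 dpc kept their direction and stayed past the threshold under all 10 alternatives. Other calls changed with how the arrays were scaled, and the cause was not tested. Centring on the median moved the median change of all probe-sets in period II to 0.21 (-0.10 without it), and the share of higher among called probe-sets was 52.8%, 65.9% and 51.2% in periods I to III with centring, 46.9%, 52.5% and 48.1% with quantile normalization, 29.2%, 74.2% and 6.18% with hepatocyte markers subtracted, and 36.8%, 42.2% and 39.2% without these steps. Relative to the median of all probe-sets, SULT2A1 changed by 0.43 and SULT1E1 by -1.16 in period II.

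In period II, SULT2A1 passed the threshold with centring (0.65, adjusted p = 0.00087), without each stage's least correlated array (0.37, adjusted p = 0.042) and with hepatocyte markers subtracted (0.77, adjusted p = 4.3e-05), and SULT1A3 with centring (0.75, adjusted p = 0.046) and with hepatocyte markers subtracted (0.87, adjusted p = 0.019). With the actin ratio both turned below 0 without a call (-0.37 and -0.081). The count of members higher in that period was then 2, 1 and 2, against 0. In period III, SULT2A1 passed with centring (0.28, adjusted p = 0.027) and without those arrays (0.25, adjusted p = 0.041), but was -0.0067 with quantile normalization and -0.080 with hepatocyte markers subtracted, without a call. SULT1E1 missed with hepatocyte markers subtracted (0.40, adjusted p = 0.052), which left 1 member higher in place of 2.

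For 188 dpn against 1 dpn, SULT2A1 missed with quantile normalization (0.24, adjusted p = 0.20) and turned to -0.65 with the actin ratio as a covariate (adjusted p = 0.34). SULT1E1 missed with centring (-0.18, adjusted p = 0.34) and with the actin ratio (-0.071, adjusted p = 0.95), as did SULT1A3 with the actin ratio (0.34, adjusted p = 0.78). The actin ratio differs between these stages, and the cause of these shifts was not tested. SULT2A1 against SULT1E1 differed in period I with 64 added (0.69, adjusted p = 0.034), and in period III with 64 added (-0.45, adjusted p = 0.049) and with quantile normalization (-0.72, adjusted p = 0.0056), all by permutation test.

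Leaving out each animal in turn, chosen after seeing the data, gave ranges in period I of 4.70 to 4.88 for SULT2A1, 4.65 to 4.91 for SULT1E1 and 1.60 to 1.84 for SULT1A3. In period II these were 0.27 to 0.40, -1.32 to -1.19 and 0.33 to 0.57, and in period III 0.19 to 0.25, 0.64 to 0.76 and 1.80 to 2.02.

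Over the pathway lists, 8 genes were lower in period I and 13 in period II with centring. Over all probe-sets these were 3729 of 12771 and 3066 of 12976, against 5243 and 5065 in the main fit. With the actin ratio, 18 list genes were higher and 6 lower in period II (1366 and 1707 of all, against 3697 and 5065). With hepatocyte markers subtracted, 10 were lower in period II (2295 of all). In period III, 7 were then higher and 33 lower (444 and 6740 of 12568, against 1951 and 3023). The whole array moved too, so these counts are not read as results about the lists. Single genes that turned were BPNT1 in period II (0.018 with centring, 0.14 with hepatocyte markers subtracted), SULF2 (-0.31) and SGSH (0.12) in period II with the actin ratio, HSD11B1 in period III (-0.10 with quantile normalization, -0.094 with hepatocyte markers subtracted), and MGST3 (-0.050) and HSD17B8 (-0.046) in period III with hepatocyte markers subtracted.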
